A study of Mus musculus with 18 samples.

Results

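The liver of mice fed a high-fat diet was compared with the liver of mice fed a normal diet. Of the 18 libraries of the series 6 entered the comparison, 3 from the normal diet (ND 1 to 3) and 3 from the high-fat diet (HFD 1 to 3). Genes were taken where at least 3 of the 9 liver libraries reached 1 FPKM (fragments per kilobase of transcript, scaled to the mapped fragments of the library), which kept 10670 of 23474 genes. All mice were male C57BL/6J animals of 17 weeks, individually housed and fed their diet for 12 weeks from the age of 5 weeks, with 10 mice per diet. The other 3 liver libraries came from mice given the high-fat diet with 0.25% (w/w) of an ethanol extract of green tea (GT 1 to 3), and they served only in the filter and in the estimate of the spread. The normal diet was the control. Poly(A) RNA was sequenced from liver tissue, so the values average over hepatocytes and all other cells. Whether every library is from a mouse of its own is not stated, and the p-values then measure only how much these libraries vary, which may be technical.

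The hepatocyte, the main cell of the liver, makes, stores, burns and exports fat, and it makes cholesterol, glucose, bile acids and most plasma proteins. Insulin favours glucose use and fat synthesis there, acting in large part through the transcription factor SREBP1c, and it holds back glucose production. In fasting the nuclear receptor PPAR-alpha turns on fatty acid oxidation. In male mice, pulses of growth hormone keep a set of male-biased genes on and female-biased genes off through STAT5B. Long feeding of a high-fat diet is a standard model of obesity with fatty liver.

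A gene is said below to have risen or fallen where limma's adjusted p (Benjamini-Hochberg over the 10670 genes) was under 0.05, and 1980 genes, or 18.6%, passed. More rose on HFD (1268 genes, 11.9%) than fell (712 genes, 6.67%). Without a call being asked, the 3 HFD libraries lay wholly above the 3 ND libraries in 23.6% of genes and wholly below them in 21.3%, or 44.9% in all. At an unadjusted p under 0.05 in limma stood 3758 of the 10670 genes, in either direction, and list counts at that level are to be read beside this. The median change over all genes was log2 -0.02. The changes were mostly moderate: 393 genes rose by log2 1 or more and 140 fell by as much, while 43 and 11 passed log2 2. Values are FPKM in the order of library 1, 2 and 3, and changes are log2 differences ± SE on the log2(FPKM + 1) scale, which understates the change of genes at low FPKM. Counts for a gene list are over its members that passed the filter, and stand against 11.9% of all genes that rose and 6.67% that fell. Of the genes given with a change below, Cidea, Slc22a27, Gsta1, Nupr1, Cdkn1c, Ccl2, Mmp12 and Scand1 were under 1 FPKM in each ND library. They could pass the filter only through libraries of high-fat-fed mice, which already favoured a rise. Cyp2b9, Sp5, Orm3, Sult1c2 and Col1a1 reached 1 FPKM in only 1 ND library, and Cfd and Cxcl1 in 2. These genes too needed libraries of high-fat-fed mice to pass, which favoured a rise. Lepr, Irs1 and Fst were under 1 FPKM in each HFD library. They passed through libraries of the other diets, which favoured a fall. No support is taken from the calls of the genes named here, though the list counts include such rises and falls. Where leaving out a library or correcting a bias moved such a count by more than 1.5 times, the paragraph gives the new count. The count over all genes moved too. It was 430 rises and 147 falls without ND 1, 421 and 136 without ND 3, and 377 and 97 without HFD 2. Without GT 3 it was 1855 and 1508, so a list count is to be read beside the count of the same fit.

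Some properties of the libraries touch the results that follow. FPKM totals ran from 703182 to 791867 on ND and from 814680 to 930139 on HFD. Scaling the libraries to equal totals moved the median change of all genes to log2 -0.20 and the share of calls that were rises from 64.0% to 41.9%, so the split between rises and falls depends on the scale. Short transcripts stood higher on HFD. The median change was log2 0.69 over 531 genes with transcripts under 1 kb, 0.31 over 1882 genes of 1 to 2 kb, 0.00 over 4375 genes of 2 to 4 kb and -0.23 over 3803 longer genes. Of the shortest class 53.3% rose, and of the longest 3.37%. Each change named below was therefore also computed after a correction for transcript length and GC content, under which 761 genes rose and 505 fell, and its value is given where it ends or makes a call or moves the value of a called gene by more than 1.5 times. What part length or RNA quality has in the results was not tested.

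**Figure D1:**
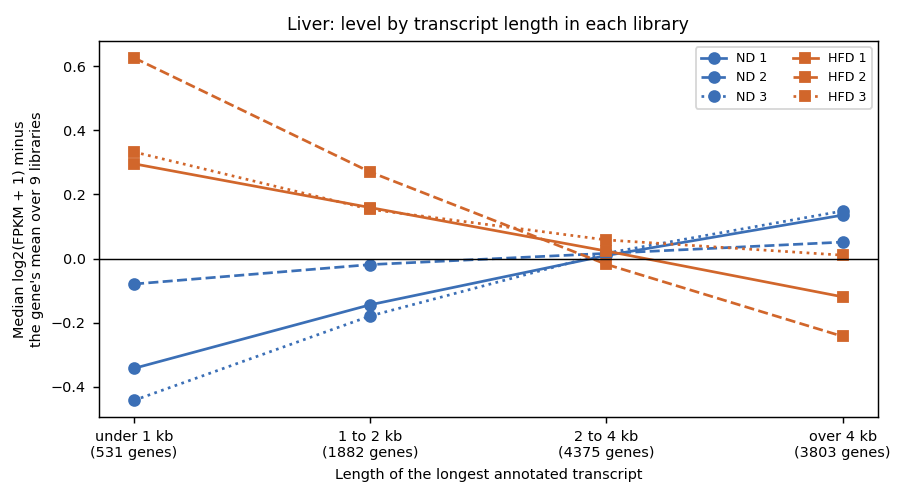
Median log2(FPKM + 1) of the genes in each class of transcript length, relative to each gene's mean over 9 liver libraries, for the 3 ND (blue) and 3 HFD (orange) libraries. The HFD libraries sit at 0.30, 0.63 and 0.33 for transcripts under 1 kb, above the ND libraries at -0.34, -0.08 and -0.44, and the order is turned for transcripts over 4 kb.

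Skeletal muscle transcripts were present in HFD 2 and, at a lower level, in HFD 3. The muscle creatine kinase Ckm was listed at 0 in all ND libraries and in HFD 1, at 21.02 FPKM in HFD 2 and at 4.09 in HFD 3. The calcium pump Atp2a1 stood at 0.153, 0 and 0.127 FPKM on ND and at 0.12, 23.5 and 5.39 on HFD. The 19 muscle markers in the table summed to 10.2 to 19.96 FPKM on ND and to 33.98, 215 and 63.8 on HFD, and of the 13 that passed the filter 1 was called, or 4 without HFD 1. The called gene, the tropomyosin gene Tpm2, is also expressed outside muscle and stood high in HFD 1 as well. Defining transcripts of fat cells stood low. Adiponectin (Adipoq) was listed at 0 in the ND libraries and in HFD 2, and stood at 1.40 FPKM in HFD 1 and 0.17 in HFD 3, with leptin (Lep) at 0.72 in HFD 1 and 0 in the other 5 libraries. Of 13 adipocyte markers 6 passed the filter and 3 rose (Car3, Cfd and Fabp4), and the list summed to 750.0, 1678 and 1088 FPKM on ND and to 3326, 2622 and 2515 on HFD. Of 11 hepatocyte markers 2 rose (Ttr and Apoc3), 2 fell (Cps1 and Pck1) and the median was log2 0.01. Transthyretin (Ttr) stood at 2291, 2828 and 2453 FPKM on ND and at 4539, 5937 and 5188 on HFD, and the hepatocyte regulator Hnf4a, which was not called, at 127, 114 and 159 FPKM on ND and at 98.5, 94.5 and 98.9 on HFD. The 2 hepatocyte rises became 1 without ND 1, ND 3 or HFD 2 or with the length and GC correction, and the 2 falls became 1 without ND 1, ND 3 or HFD 2. Albumin (Alb) was listed at exactly 0 in HFD 3 and at 21156 to 28177 FPKM in the other 8 liver libraries, and mt-Co1 was listed at 0 in HFD 3 and GT 3. These zeros sit on abundant genes, so no change is given for either gene. Without HFD 2 and GT 3, the libraries with most muscle RNA, 1804 genes were called, 1172 up and 632 down.

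The markers of other cells are given list by list. Of 16 Kupffer cell and macrophage markers 0 rose and 0 fell in limma (3 and 2 at an unadjusted p under 0.05, and 1 without GT 3 and 2 without HFD 1 as rises), and their summed level was 145 to 196 FPKM on ND and 163 to 226 on HFD. The Kupffer cell lectin Clec4f stood at 26.4, 32.7 and 32.6 FPKM on ND and at 30.5, 41.8 and 36.1 on HFD, and the monocyte and neutrophil markers summed to 3.26 to 3.70 FPKM on ND and 7.53 to 10.1 on HFD. Of these 12 markers 3 (S100a8, S100a9 and Ccr2) passed the filter, all of them under 1 FPKM in each ND library and over it only in the high-fat libraries, so that entering the test already favoured a rise, and no support is taken from their calls. The other 9, among them Itgam at 0.171, 0.42 and 0.306 FPKM on ND and at 0.219, 0.178 and 0.236 on HFD, were not tested. The 3 were called as rises, and these became 1 without ND 1, ND 3 or HFD 2 or with the length and GC correction. Of 13 endothelial and sinusoid markers 4 fell and 1 rose, and of 10 stellate cell and fibroblast markers 2 rose, while Lrat and Clec4g, which define stellate and sinusoidal cells, were listed at 0 in all 6 libraries. The 4 endothelial falls became 0 without ND 3 or HFD 2, 1 without ND 1 or ND 2 and 2 without HFD 1, without HFD 2 and GT 3 together or with the length and GC correction, and the 1 rise became 0 without ND 1, ND 3, HFD 1, HFD 2 or HFD 3 or at equal FPKM totals. The 2 stellate rises became 1 without ND 1, ND 3, HFD 2 or HFD 3 or without HFD 2 and GT 3 together. Transcripts of red blood cells stood higher on HFD in part. Of 8 erythroid markers 5 passed the filter, 3 rose (Hba-a1, Hba-a2 and Hbb-bt) and 0 fell, and the list summed to 125, 156 and 140.2 FPKM on ND and to 197, 267 and 334 on HFD. With the length and GC correction 0 of these rose, and the median moved from log2 0.90 to 0.18. Hba-a1 and Hba-a2 are near-identical, so their separate values are uncertain. Of the 19 lymphocyte markers 2 passed the filter and 1 rose (Ighm), and that count became 0 without ND 1, ND 3, HFD 2 or HFD 3 or with the length and GC correction. Of the 11 cholangiocyte markers 3 passed and 1 rose (Spp1), which became 0 without ND 1, ND 3, HFD 2 or HFD 3, at equal FPKM totals or with the length and GC correction. Of the 14 markers of dendritic cells and MHC class II 7 passed, with 0 calls and 0 at an unadjusted p under 0.05. Of the 14 pancreas markers 1 passed and was not called, and no mesothelium, kidney or gut marker passed. In bulk RNA, fewer cells of a type and less RNA per cell cannot be told apart.

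**Figure D2:**
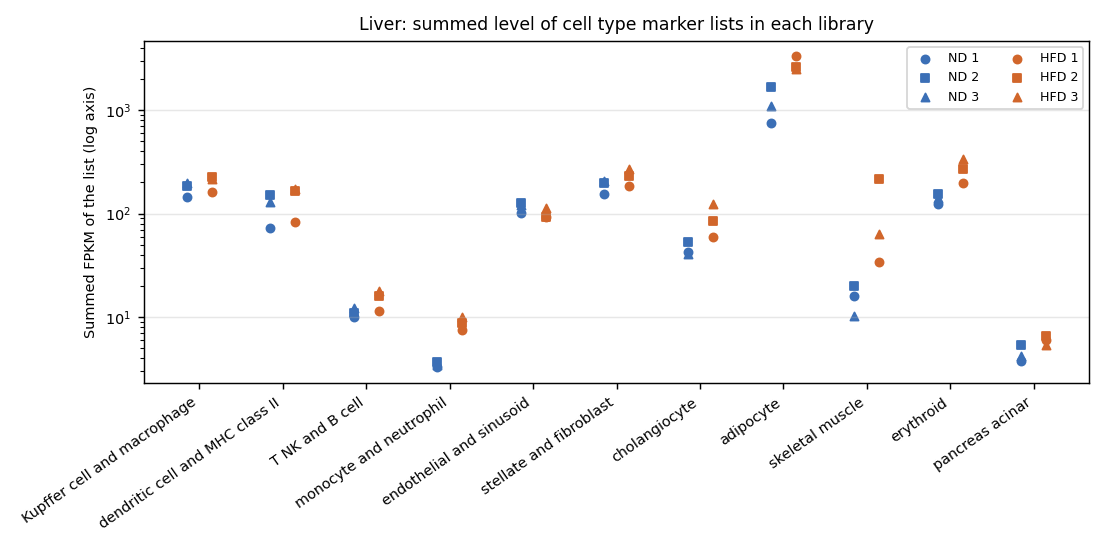
Summed FPKM (log axis) of each list of cell type markers in the 3 ND (blue) and 3 HFD (orange) libraries. The muscle list stands out in HFD 2 at 215 FPKM, the macrophage list overlaps between the diets, and most of the adipocyte sum is Car3, a carbonic anhydrase that hepatocytes express too.

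The leptin receptor gene Lepr was among the 11 falls past log2 2. It fell about 14.2-fold, from 14, 7.81 and 12.7 FPKM on ND to 0.862, 0.886 and 0.689 on HFD. Each HFD library was under 1 FPKM (log2 -2.75 ± 0.20, adjusted p = 0.000123). Lepr thus passed the filter through libraries of the other diets, which favoured a fall, and no support is taken from its call.

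**Figure D3:**
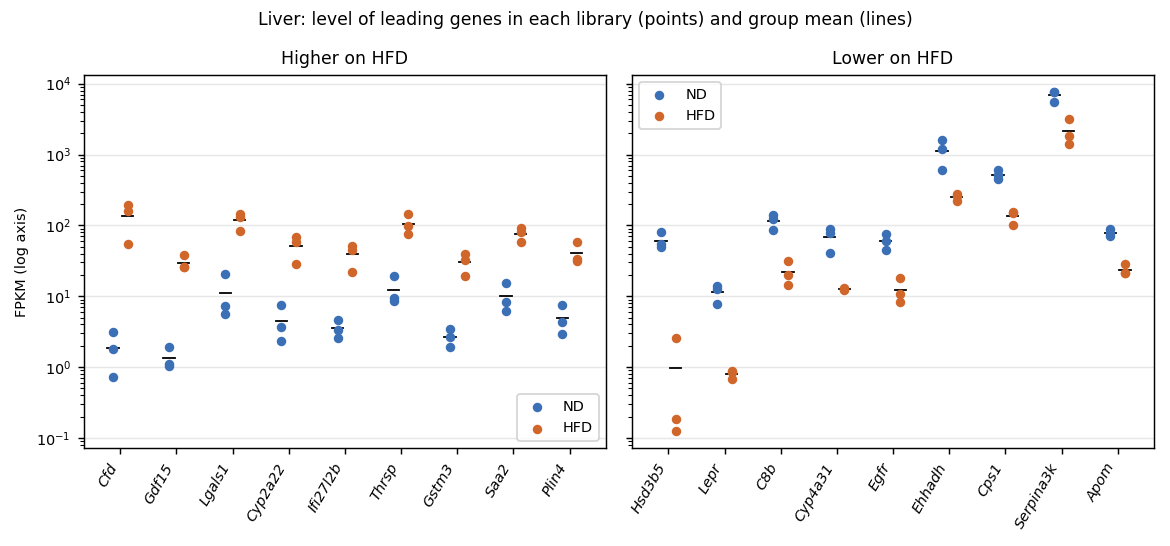
FPKM (log axis) of 9 genes that rose and 9 that fell, with a point per library and a line at the group mean. ND points (blue) and HFD points (orange) do not overlap for any gene shown; Lepr runs from 7.81 to 14.0 on ND and from 0.689 to 0.886 on HFD.

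Most genes of cholesterol synthesis rose on HFD. The pathway turns acetyl-CoA into mevalonate, isoprene units, squalene and then sterols, and its genes are turned on by SREBP2 when the cell senses little sterol. Of 20 members tested, 13 rose and 0 fell (1 lower at an unadjusted p under 0.05, and 1 fall without ND 2 or GT 3), with a median change of log2 0.75 against -0.02 over all genes. The genes that rose came from early and late steps. HMG-CoA synthase (Hmgcs1), an early enzyme of the pathway, stood at 42.6, 27 and 36.4 FPKM on ND and at 89.1, 116 and 129 on HFD. Farnesyl diphosphate synthase (Fdps) stood at 20.7, 18.6 and 19.1 FPKM on ND and at 69.2, 119 and 96.3 on HFD. Neither gene's diets overlapped, and Fdps was highest in HFD 2 (log2 1.64 ± 0.25, adjusted p = 0.00316 for Hmgcs1 and log2 2.20 ± 0.30, adjusted p = 0.00202 for Fdps). Of the enzymes that take methyl groups off the sterol ring, the methyl oxidase Msmo1 stood at 12.1, 15 and 16.4 FPKM on ND and at 56, 76.5 and 56.3 on HFD. The sterol dehydrogenase Nsdhl stood at 7.95, 5.73 and 7.1 FPKM on ND and at 23.4, 27.8 and 30.4 on HFD. Both rose (log2 2.04 ± 0.21, adjusted p = 0.000769 and log2 1.83 ± 0.21, adjusted p = 0.00113). The isoprene isomerase Idi1 (log2 1.14 ± 0.20, adjusted p = 0.00564) and the thiolase Acat2 (log2 1.16 ± 0.20, adjusted p = 0.00547) rose by less. Squalene epoxidase (Sqle) stood at 3.6, 2.03 and 4.42 FPKM on ND and at 7.14, 13 and 13.5 on HFD, with its lowest HFD value in HFD 1 (log2 1.48 ± 0.30, adjusted p = 0.0102, and adjusted p = 0.0575 without HFD 2). The 13 rises became 8 without HFD 2, where the rises over all genes went from 1268 to 377.

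The sterol sensors did not follow as a group. Of 13 genes of sterol sensing and uptake 2 rose and 1 fell, against 11.9% and 6.67% of all genes. Insig1, which holds the SREBP complex in the endoplasmic reticulum and is itself an SREBP target, stood at 17.1, 26.8 and 31.6 FPKM on ND and at 51.2, 59 and 53.3 on HFD (log2 1.12 ± 0.25, adjusted p = 0.0134, and adjusted p = 0.0599 and 0.0681 without ND 1 and HFD 2 in turn). Scap, the escort protein of SREBP, fell from 32.8, 35.6 and 33.3 FPKM on ND to 22.5, 19.6 and 19.6 on HFD (log2 -0.70 ± 0.14, adjusted p = 0.00916). Its 3 values on each diet were tight and apart. Srebf2, which encodes SREBP2, stood at 7.8, 5.61 and 7.78 FPKM on ND and at 8.21, 7.78 and 10.2 on HFD. It overlapped between diets and did not pass (adjusted p = 0.25). Without ND 1 or HFD 2 the 2 rises of the list became 0, and they became 1 without ND 2, ND 3 or HFD 3, while the fall became 3 without GT 3.

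The rises of Hmgcs1, Nsdhl, Idi1, Msmo1, Fdps and Acat2 stood whichever single library was left out. Of these genes the promoters of Hmgcs1, Nsdhl and Idi1 are shown as examples, because NF-Y, which binds CCAAT, is a known partner of SREBP. Each is 300 bases on the plus strand, from 250 before to 50 after the RefSeq start, at chr13:119690101-119690400, chrX:72918271-72918570 and chr13:8885356-8885655 of GRCm38.p6. The deposited values name no build, so these places belong to the RefSeq table alone. Capitals mark CCAAT on either strand (ATTGG on the strand shown) and, in Hmgcs1, a match to the sterol element TCACNCCAC at position -137.
Hmgcs1: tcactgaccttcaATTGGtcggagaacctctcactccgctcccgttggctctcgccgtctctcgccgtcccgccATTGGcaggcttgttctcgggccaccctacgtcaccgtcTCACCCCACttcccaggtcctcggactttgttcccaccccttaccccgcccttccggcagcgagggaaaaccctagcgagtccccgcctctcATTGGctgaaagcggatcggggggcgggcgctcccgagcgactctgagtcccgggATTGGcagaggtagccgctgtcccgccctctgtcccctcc
Nsdhl: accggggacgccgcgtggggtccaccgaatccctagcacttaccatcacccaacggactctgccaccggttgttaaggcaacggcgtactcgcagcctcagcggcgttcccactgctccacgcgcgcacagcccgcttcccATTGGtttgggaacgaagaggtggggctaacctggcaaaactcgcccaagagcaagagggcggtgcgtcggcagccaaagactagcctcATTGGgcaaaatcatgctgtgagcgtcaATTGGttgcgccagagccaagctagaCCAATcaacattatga
Idi1: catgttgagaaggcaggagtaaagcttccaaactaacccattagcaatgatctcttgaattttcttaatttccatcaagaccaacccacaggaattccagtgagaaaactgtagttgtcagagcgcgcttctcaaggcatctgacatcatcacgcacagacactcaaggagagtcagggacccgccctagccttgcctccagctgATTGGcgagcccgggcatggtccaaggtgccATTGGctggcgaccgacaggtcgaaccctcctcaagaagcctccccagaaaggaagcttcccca
CCAAT was found in 14 of the 15 cholesterol synthesis genes with a promoter in the table, in 9 of the 10 that rose and in 5 of the 5 that did not pass. It is common elsewhere too, in 42.9% of the 8364 tested genes with a promoter and in 37.4% of all 32851 promoters. TCACNCCAC was in 1.24% of all promoters and, of the 15, in that of Hmgcs1. The motifs were searched on both strands and do not overlap each other in these sequences. A match is a string of letters in this window and says nothing of binding.

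Fatty acid synthesis showed a mixed pattern, with rises at some steps and falls at others. Of 23 genes 7 rose and 5 fell, and the median was log2 0.22. Thrsp, which encodes a small lipogenic protein of liver and fat, stood at 9.32, 19.3 and 8.59 FPKM on ND and at 75.4, 98.3 and 144 on HFD. Its partner Mid1ip1 stood at 1.6, 2.1 and 1.59 FPKM on ND and at 4.86, 5.61 and 4.6 on HFD. Neither gene overlapped between diets (log2 3.03 ± 0.37, adjusted p = 0.0014 and log2 1.13 ± 0.14, adjusted p = 0.00141). Fatty acid synthase (Fasn), which builds palmitate, rose from 15.5, 21.2 and 20.3 FPKM on ND to 49.6, 72.4 and 98.5 on HFD (log2 1.85 ± 0.28, adjusted p = 0.00307). The elongase Elovl1 rose by log2 0.93 ± 0.17 (adjusted p = 0.00731). The enzymes just before Fasn did not pass. ATP citrate lyase (Acly) stood at 15.8, 15.6 and 18.6 FPKM on ND and at 14.2, 12.4 and 18.3 on HFD, and acetyl-CoA carboxylase (Acaca) at 6.11, 5.84 and 6.69 FPKM on ND and at 4.8, 5.3 and 7.21 on HFD. Both overlapped between diets (log2 -0.16 ± 0.16 and -0.11 ± 0.16). The stearoyl-CoA desaturase Scd1 stood at 924, 2015 and 1745 FPKM on ND and at 2099.5, 1238 and 1958 on HFD. Its spread within each diet exceeded the difference between them, and adjusted p was 0.807. The 7 rises of the list became 4 without ND 1 or HFD 2 or at equal FPKM totals, and the 5 falls became 0 without ND 1 or HFD 2, 1 without ND 3, 2 without HFD 1 and 3 without HFD 2 and GT 3 together. At equal FPKM totals the median of the list was log2 -0.00153.

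Some genes of proteins that coat or enlarge lipid droplets rose. Of 17 droplet proteins and lipases 5 rose and 0 fell (1 lower at an unadjusted p under 0.05). Cidea, which fuses droplets and is typical of brown fat, stood at 0.26, 0.113 and 0 FPKM on ND and at 15.4, 7.66 and 6.11 on HFD. It was near 0 in each ND library and highest in HFD 1 (log2 3.17 ± 0.51, adjusted p = 0.00531), and with 0.1 added in place of 1 the change was log2 5.53. The droplet coat protein Plin4 stood at 4.36, 7.42 and 2.96 FPKM on ND and at 31.5, 33.8 and 59 on HFD. It was highest in HFD 3 (log2 2.86 ± 0.39, adjusted p = 0.00202). Fitm1, which helps droplets bud from the endoplasmic reticulum, stood at 16.6, 32.3 and 18.4 FPKM on ND and at 81.4, 86.4 and 62.8 on HFD (log2 1.78 ± 0.24, adjusted p = 0.00176, and log2 1.07 with the length and GC correction). The fatty acid carrier Fabp4, known from fat cells and macrophages, stood at 9.73, 9.89 and 6.53 FPKM on ND and at 35.7, 30.2 and 36.7 on HFD (log2 1.87 ± 0.24, adjusted p = 0.00146). Adipoq, which fat cells make in quantity, stayed at or under 1.40 FPKM in these libraries, and its part in the Fabp4 and Cidea values was not tested. The most abundant coat protein, Plin2, stood at 987, 535 and 705 FPKM on ND and at 619.6, 541 and 597 on HFD. It was highest in ND 1, the diets overlapped, and it did not pass (adjusted p = 0.59). Cidec, a relative of Cidea, stood at 55, 28.8 and 30.2 FPKM on ND and at 71.8, 76.7 and 115 on HFD with adjusted p = 0.0737. Of 12 triglyceride synthesis genes 2 rose and 1 fell, against 11.9% and 6.67% of all genes. The gene that fell, the acyltransferase Gpat4, went from 100.3, 83.9 and 79.4 FPKM on ND to 42.2, 29.7 and 28.1 on HFD (log2 -1.39 ± 0.27, adjusted p = 0.00842). The 5 droplet rises became 3 without ND 1, ND 3 or HFD 2, at equal FPKM totals or with the length and GC correction. The 2 triglyceride synthesis rises became 0 without ND 1, ND 3 or HFD 2 and 1 without HFD 1, HFD 3 or GT 1, at equal FPKM totals, without HFD 2 and GT 3 together or with the length and GC correction, and the fall became 2 without GT 3. Droplet falls, 0 here, became 1 without HFD 2 and GT 3 together and 3 without GT 3.

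Several genes of fatty acid oxidation and other targets of PPAR-alpha fell. Of 37 genes 8 fell and 4 rose, with a median of log2 -0.34. Several Cyp4a enzymes, which hydroxylate the end of fatty acids, fell. Cyp4a10 stood at 2034, 1904 and 2224 FPKM on ND and at 770.4, 740.1 and 662 on HFD. Cyp4a14 stood at 4395, 2425 and 3767 FPKM on ND and at 1097, 730.2 and 874 on HFD. Neither overlapped between diets, and the ND values of Cyp4a14 were the more spread (log2 -1.5 ± 0.20, adjusted p = 0.00176 and log2 -1.95 ± 0.37, adjusted p = 0.00791). Cyp4a31 fell too (log2 -2.28 ± 0.26, adjusted p = 0.00113). The Cyp4a genes are close copies of each other, so reads could be assigned to the wrong one. The peroxisomal bifunctional enzyme Ehhadh stood at 1612, 612 and 1197 FPKM on ND and at 282, 219.6 and 263 on HFD. ND 2 was the lowest of the ND libraries and still above every HFD library (log2 -2.06 ± 0.38, adjusted p = 0.00673). Cpt1a, the gate for fatty acids into mitochondria, stood at 262, 254 and 265 FPKM on ND and at 134, 121 and 148 on HFD. The values were tight on both diets (log2 -0.96 ± 0.24, adjusted p = 0.0219), but the call ended in 4 fits, with adjusted p = 0.079, 0.081, 0.0517 and 0.1 without ND 1, ND 3, HFD 1 and HFD 2 in turn. Hacl1, the lyase of branched fatty acids, stood at 219, 181 and 186 FPKM on ND and at 109, 83.4 and 83.8 on HFD (log2 -1.08 ± 0.19, adjusted p = 0.00559). The receptor gene Ppara itself stood at 66.7, 41 and 73.9 FPKM on ND and at 40.8, 39.1 and 53.6 on HFD and overlapped (adjusted p = 0.208). Against this direction, the uncoupling protein Ucp2 stood at 9.19, 11.8 and 14.6 FPKM on ND and at 34.6, 38.7 and 40.1 on HFD (log2 1.61 ± 0.26, adjusted p = 0.00488). Of 33 peroxisome genes 2 fell and 0 rose (0 higher at an unadjusted p under 0.05). These 2 falls are near the share of falls over all genes, 6.67%. The 8 falls of the oxidation list became 4 without ND 1 or HFD 2, 5 without ND 3 and 16 without GT 3, and the 4 rises became 1 without ND 3 and 2 without ND 1 or HFD 2, at equal FPKM totals or with the length and GC correction. The 2 peroxisome falls became 1 without ND 1, ND 3, HFD 2 or HFD 3, 4 without HFD 2 and GT 3 together, 5 with the length and GC correction and 7 without GT 3.

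Genes of glucose production were among those that fell in glucose metabolism. Of 24 genes 2 rose and 5 fell. Pck1, the gatekeeper of gluconeogenesis, stood at 1190.3, 917 and 1515 FPKM on ND and at 482, 362 and 588 on HFD. The phosphatase G6pc, which releases glucose, stood at 169, 124 and 224 FPKM on ND and at 82.5, 53.3 and 89.4 on HFD. For both, ND 3 was highest and HFD 2 lowest, and the diets did not overlap (log2 -1.34 ± 0.30, adjusted p = 0.0151 and log2 -1.18 ± 0.30, adjusted p = 0.0233). Neither call held in every fit: adjusted p for Pck1 was 0.0594, 0.0711 and 0.0816 without ND 1, ND 3 and HFD 2 in turn, and for G6pc 0.0818, 0.104 and 0.116 without ND 1, ND 3 and HFD 2 in turn, besides 0.0632 without HFD 2 and GT 3. The 5 falls of the list became 1 without ND 3 or HFD 2, 2 without ND 1 and 3 without ND 2 or GT 1 or without HFD 2 and GT 3 together, and the 2 rises became 1 in each of the 6 fits without an ND or HFD library and at equal FPKM totals.

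Several genes of insulin and IGF signalling fell, some of them close to the threshold. Of 22 genes 8 fell and 3 rose. Igfbp1, an IGF binding protein that insulin represses, stood at 72.4, 43.2 and 106 FPKM on ND and at 25, 10.1 and 26.8 on HFD (log2 -1.81 ± 0.45, adjusted p = 0.0199, and adjusted p = 0.0736, 0.0917 and 0.0978 without ND 1, ND 3 and HFD 2 in turn, besides 0.0578 without HFD 2 and GT 3 together). Irs2, a docking protein of the insulin receptor, stood at 5.04, 2.07 and 6.44 FPKM on ND and at 1.32, 0.762 and 1.44 on HFD, and its relative Irs1 at 1.83, 1.45 and 2.29 FPKM on ND and at 0.835, 0.363 and 0.786 on HFD. Both were lower in each HFD library, with log2 -1.26 ± 0.40 and -0.78 ± 0.18. The adjusted p of Irs2 was 0.0479 and that of Irs1 0.0141, and both calls ended with the length and GC correction. The corrected change of Irs2 was log2 -1.07, adjusted p = 0.1, and that of Irs1 was log2 -0.43, adjusted p = 0.0901. The receptor gene Insr stood at 20.4, 19.4 and 20.2 FPKM on ND and at 14.3, 12.2 and 15.4 on HFD. Its change of log2 -0.49 ± 0.16 (adjusted p = 0.0497) became log2 -0.11, adjusted p = 0.612 with that correction. Leaving out libraries also ended these calls, with adjusted p for Irs1 of 0.0547, 0.0663 and 0.0741 without ND 1, ND 3 and HFD 2 in turn. For Irs2 it was 0.152, 0.178, 0.0817, 0.182, 0.08 and 0.0708 without ND 1, ND 3, HFD 1, HFD 2, HFD 3 and GT 2 in turn. For Insr it was 0.15, 0.08, 0.14, 0.097, 0.192, 0.0631, 0.0658 and 0.0535 without ND 1, ND 2, ND 3, HFD 1, HFD 2, HFD 3, GT 1 and GT 2 in turn. Follistatin (Fst), a secreted binder of activins, stood at 1.84, 1.6 and 1.5 FPKM on ND and at 0.463, 0.525 and 0.797 on HFD (log2 -0.73 ± 0.14, adjusted p = 0.00842), and with 0.1 added its change was log2 -1.35. The binding protein Igfbp7 rose, from 31.4, 33.4 and 29.2 FPKM on ND to 57.3, 89.6 and 89.6 on HFD (log2 1.28 ± 0.19, adjusted p = 0.00322, and log2 0.73 after correction). The 8 falls became 1 without ND 1, ND 3 or HFD 2, 4 without HFD 3 or with the length and GC correction and 5 without HFD 1 or GT 2, and the 3 rises became 1 without ND 1, ND 3, HFD 2 or HFD 3, at equal FPKM totals or without HFD 2 and GT 3 together.

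**Figure D4:**
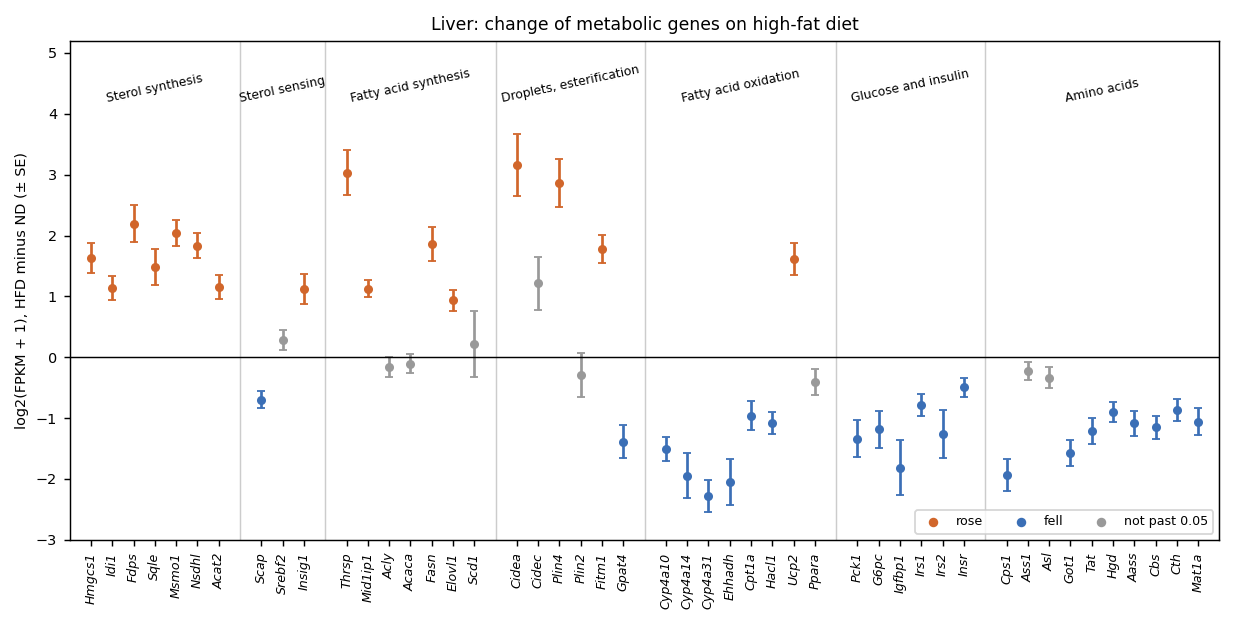
Change on HFD, log2(FPKM + 1) HFD minus ND with its SE, of genes of sterol and fatty acid synthesis, lipid droplets, oxidation, glucose, insulin and amino acid metabolism. Orange genes rose, blue genes fell and grey genes did not pass an adjusted p of 0.05; all Cyp4a genes shown lie below 0.

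Some enzymes of amino acid breakdown fell. Of 50 genes of the urea cycle and amino acid breakdown 10 fell and 4 rose, with a median of log2 -0.21. Cps1, which brings ammonia into the urea cycle, fell about 3.81-fold, from 507, 453 and 598 FPKM on ND to 156, 102 and 152 on HFD. HFD 2 was lowest and the diets were far apart (log2 -1.94 ± 0.27, adjusted p = 0.00202). The later urea cycle enzymes did not pass: Ass1 stood at 883, 828 and 835 FPKM on ND and at 677, 716 and 785 on HFD, and Asl changed by log2 -0.34 ± 0.17. With the length and GC correction both passed as falls (log2 -0.53, adjusted p = 0.0349 and log2 -0.48, adjusted p = 0.0497). The aspartate aminotransferase Got1 stood at 213, 250.2 and 135 FPKM on ND and at 63.3, 60.5 and 69 on HFD. Tat and Hgd, of tyrosine breakdown, and Aass, of lysine breakdown, were lower in each HFD library. Tat stood at 400.4, 517 and 591 FPKM on ND and at 231, 163 and 258 on HFD. Hgd ran from 552 to 595 FPKM on ND and from 296 to 317 on HFD. The changes were log2 -1.57 ± 0.21 for Got1, -1.21 ± 0.21 for Tat, -0.90 ± 0.16 for Hgd and -1.08 ± 0.21 for Aass, with adjusted p from 0.00184 to 0.00775. The 10 falls became 6 without HFD 2, and the 4 rises became 0 without ND 1 or HFD 2, 1 without ND 3 or at equal FPKM totals and 2 without HFD 3.

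Enzymes on the route from methionine to cysteine fell. Of 20 methionine and one-carbon genes 5 fell and 2 rose. Mat1a, which makes the methyl donor S-adenosylmethionine, stood at 2650.0, 2590.1 and 2369 FPKM on ND and at 1263, 1176 and 1212 on HFD. Cbs, which joins homocysteine with serine, stood at 264, 177 and 248 FPKM on ND and at 116, 89.9 and 99.3 on HFD, and Cth, which splits the product to cysteine, at 413, 507 and 362 FPKM on ND and at 274, 220.3 and 205 on HFD. No gene of these overlapped between diets, and the HFD values of Mat1a were within a narrow range (log2 -1.06 ± 0.22, adjusted p = 0.0113; log2 -1.15 ± 0.19, adjusted p = 0.00518; log2 -0.87 ± 0.17, adjusted p = 0.0098). The call of Mat1a ended with adjusted p = 0.0517 and 0.0568 without ND 1 and HFD 2 in turn, and that of Cth with 0.0512 without HFD 2. Thymidylate synthase (Tyms), which uses folate to make thymidylate, rose from 3.27, 3.2 and 3.25 FPKM on ND to 6.18, 6.96 and 7.08 on HFD (log2 0.87 ± 0.13, adjusted p = 0.00329). The 5 falls became 1 without HFD 2, 2 without ND 1 and 3 without ND 2 or ND 3, and the 2 rises became 1 without ND 1, ND 3 or HFD 2 or at equal FPKM totals.

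Many male-biased genes fell, and some female-biased genes rose. Of 22 male-biased genes 12 fell and 0 rose (0 higher at an unadjusted p under 0.05), with a median of log2 -1.27, and of 14 female-biased genes 6 rose and 1 fell. These 14 were the part of 31 female-biased genes that passed the filter, with a median of log2 0.33. Without a filter 30 were tested, 8 rose and 3 fell, and the median was log2 0.09. The summed level of the female-biased list stood lower on HFD, at 4545, 2649 and 3930 FPKM on ND and at 1299, 1010 and 1233 on HFD. These sums ran close to the level of Cyp4a14 alone, at 4395, 2425 and 3767 FPKM on ND and at 1097, 730 and 874 on HFD. A sum follows the most abundant members and does not describe the list as a whole. The steroid dehydrogenase Hsd3b5, made in male liver, stood at 54.5, 49.1 and 79.96 FPKM on ND and at 2.58, 0.185 and 0.124 on HFD. HFD 1 kept a trace and the other HFD libraries were near 0 (log2 -5.17 ± 0.67, adjusted p = 0.00292). The glucuronosyltransferase Ugt2b1 stood at 215, 193 and 245 FPKM on ND and at 117, 63.3 and 80.1 on HFD (log2 -1.36 ± 0.26, adjusted p = 0.00849). Cyp7b1, which hydroxylates oxysterols and steroids, stood at 111, 78.3 and 127 FPKM on ND and at 64.5, 30.9 and 20.9 on HFD. HFD 1 lay closest to the ND libraries (log2 -1.55 ± 0.36, adjusted p = 0.0157), and adjusted p was 0.0641, 0.0712 and 0.0771 without ND 1, ND 3 and HFD 2 in turn, besides 0.089 without HFD 2 and GT 3 together. On the female-biased side, the anion transporter gene Slc22a27 stood at 0.236, 0.815 and 0.108 FPKM on ND and at 5.45, 8.51 and 12.6 on HFD (log2 2.80 ± 0.33, adjusted p = 0.00126, and log2 4.40 with 0.1 added). The cytochrome Cyp2b9 went from 0.999, 4.42 and 0.966 FPKM on ND to 50.5, 103 and 132 on HFD (log2 5.01 ± 0.62, adjusted p = 0.00203). ND 2 had the highest ND value of both. Cyp2a22 (3.26 ± 0.39 on the log2 scale) and Cyp2c38 (1.46 ± 0.25) rose as well, outside the female-biased list. These cytochromes belong to families of near-identical copies, so how reads were split among them is uncertain. The 12 male-biased falls became 7 without HFD 2 or without HFD 2 and GT 3 together, and the 6 female-biased rises became 3 without ND 1 or ND 3. The 1 female-biased fall became 2 without GT 3.

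The major urinary proteins, male pheromone carriers made in the liver from a cluster of very similar genes, pointed down without many calls. Their median was log2 -1.43, and of 19 genes 2 fell. Mup1 stood at 440.1, 270.3 and 443 FPKM on ND and at 210.0, 71.9 and 20.3 on HFD, and Mup3 at 6541, 7337 and 6141 FPKM on ND and at 5556, 4486 and 2349.6 on HFD. Both were lowest in HFD 3 and spread widely on HFD (log2 -2.45 ± 0.75, adjusted p = 0.0531 for Mup1 and log2 -0.78 ± 0.28, adjusted p = 0.0775 for Mup3). With the length and GC correction both passed as falls, Mup1 with log2 -2.99, adjusted p = 0.034 and Mup3 with log2 -1.30, adjusted p = 0.0159. Mup8 stood at 9.97, 9.7 and 13.2 FPKM on ND and at 4.09, 4.72 and 0.84 on HFD and passed (log2 -1.65 ± 0.36, adjusted p = 0.0131, but adjusted p = 0.0623 without ND 3). The 2 falls became 0 without ND 3, 1 without HFD 2, 5 at equal FPKM totals, 6 with the length and GC correction and 9 without HFD 1. Because of their likeness the values of single Mup genes are uncertain, and several were listed at exactly 0 in GT 2 or GT 3, which shared the estimate of the spread.

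Of 13 genes of growth hormone receptor and STAT5 signalling 4 fell and 0 rose (1 higher at an unadjusted p under 0.05). The receptor gene Ghr stood at 170.2, 182 and 178 FPKM on ND and at 196, 168 and 169 on HFD, and Stat5b at 11.7, 9.62 and 10.3 FPKM on ND and at 10.4, 8.07 and 9.8 on HFD. Both overlapped and neither passed (adjusted p = 0.977 and 0.517). Socs2, a STAT5 target that damps growth hormone signalling, stood at 41.6, 17 and 10.5 FPKM on ND and at 2.97, 5.11 and 4.38 on HFD. ND 1 was far above the other ND libraries (log2 -2.03 ± 0.46, adjusted p = 0.0152, with adjusted p = 0.0537 and 0.0541 without ND 1 and HFD 2 in turn, besides 0.0507 without HFD 2 and GT 3 together). The EGF receptor gene Egfr, which is counted in the male-biased list too, stood at 59.8, 44.6 and 74.6 FPKM on ND and at 18.1, 10.9 and 8.42 on HFD (log2 -2.21 ± 0.40, adjusted p = 0.00673). The 4 falls became 2 without ND 1 or HFD 2 or without HFD 2 and GT 3 together.

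Glutathione S-transferases, which couple glutathione to reactive compounds, rose in most members. Of 21 genes 14 rose and 0 fell (0 lower at an unadjusted p under 0.05), with a median of log2 1.16. Gstm1, an abundant member, stood at 234, 302 and 237 FPKM on ND and at 827, 1197 and 1222 on HFD. Gstm3 stood at 1.92, 3.51 and 2.67 FPKM on ND and at 19.3, 32.5 and 39.8 on HFD. In both, every HFD library lay above every ND library, with the highest value in HFD 3 (log2 2.05 ± 0.20, adjusted p = 0.000634 and log2 3.05 ± 0.28, adjusted p = 0.000428). Gsta1 stood at 0.593, 0.413 and 0.58 FPKM on ND and at 11.8, 51.5 and 66.5 on HFD. HFD 1 was well below the other HFD libraries (log2 4.55 ± 0.61, adjusted p = 0.00298), and without HFD 2 and GT 3 the corrected change had adjusted p = 0.059. Gsta2 (log2 1.96 ± 0.18) and Gstm2 (1.82 ± 0.23) also rose. Gsta1 and Gsta2, and the Gstm genes among themselves, are near-identical, so their separate values are uncertain. Gsta4, more distant in sequence, rose from 16.6, 20.2 and 17.1 FPKM on ND to 42.3, 49.1 and 47.2 on HFD (log2 1.32 ± 0.15), and Gstt1 from 145, 215 and 147 FPKM on ND to 412, 511 and 436 on HFD (log2 1.44 ± 0.19). These are short transcripts, and with the length and GC correction the changes were log2 0.77 and 0.89, 11 genes of the family rose and 2 fell. Gstp1 was the exception among abundant forms, at 505, 446 and 569 FPKM on ND and at 381, 504 and 407 on HFD. It overlapped between diets (adjusted p = 0.351) and was one of the 2 that fell after correction (log2 -0.95, adjusted p = 0.0139). The 14 rises became 9 without HFD 2.

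Other targets of NRF2, the sensor of oxidative and electrophilic stress, rose in part: 9 of 25 rose and 1 fell, with a median of log2 0.57. The quinone reductase Nqo1, its classic target, stood at 2.89, 3.13 and 1.84 FPKM on ND and at 6.99, 9.99 and 10.9 on HFD (log2 1.51 ± 0.23, adjusted p = 0.00332). Transaldolase (Taldo1) and transketolase (Tkt), of the pentose phosphate pathway, were tight and apart. Taldo1 stood at 57.2, 53.9 and 53.3 FPKM on ND and at 126, 138 and 135 on HFD, and Tkt at 24.4, 25.4 and 22.3 FPKM on ND and at 44.7, 57.8 and 58.8 on HFD (log2 1.26 ± 0.14 and 1.12 ± 0.17). The export pump Abcc3 rose by log2 1.14 ± 0.18, and Ugdh, which makes the sugar donor for glucuronidation, by log2 1.27 ± 0.24. The sulfotransferase Sult1c2, outside this list, stood at 0.812, 0.973 and 1.25 FPKM on ND and at 3.68, 4.57 and 5.11 on HFD (log2 1.43 ± 0.21, adjusted p = 0.00307). The antioxidant element TGACNNNGC, searched on both strands, was in the promoters of 8 of 21 NRF2 targets and 4 of 19 glutathione S-transferases with a promoter, against 17% of the tested genes and 4 of 15 cholesterol synthesis genes. Among the NRF2 targets it was in 2 of 7 that rose and 5 of 13 that were not called, and among the glutathione S-transferases in 3 of 13 that rose and 1 of 6 that were not called. The 9 rises became 5 without ND 1 and 16 without GT 3, and the 1 fall became 0 without ND 1, ND 3, HFD 1 or HFD 2 and 2 without GT 3.

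Secreted plasma proteins changed in both directions. Of 26 acute-phase proteins 10 rose and 2 fell. The serum amyloid A genes, classic acute-phase proteins carried on HDL, rose together: Saa1 stood at 26.9, 30.8 and 23 FPKM on ND and at 102, 140.5 and 118 on HFD. Saa2 stood at 8.43, 15.4 and 6.18 FPKM on ND and at 58.4, 91.5 and 80.7 on HFD. Saa4, the constitutive form, stood at 34, 52.5 and 47.9 FPKM on ND and at 118, 121 and 122 on HFD. None overlapped, and HFD 2 was highest for Saa1 and Saa2 (log2 2.11 ± 0.26, adjusted p = 0.00129; log2 2.89 ± 0.35, adjusted p = 0.00126; log2 1.43 ± 0.18, adjusted p = 0.00146). Saa1 and Saa2 are near-identical. Orm2 and Orm3, which encode forms of orosomucoid, rose by log2 2.38 ± 0.37 and 2.22 ± 0.24. The change of Orm3, at 0.20 to 1.28 FPKM on ND, was log2 3.41 with 0.1 added, and the corrected change of Orm2 without HFD 2 and GT 3 had adjusted p = 0.0603. Lipocalin 2 (Lcn2), an iron-sequestering protein, stood at 1.12, 2.64 and 1.31 FPKM on ND and at 12.4, 38.5 and 33.2 on HFD (log2 3.33 ± 0.43, adjusted p = 0.00174). The transcription factor Cebpb, which drives acute-phase genes, stood at 7.66, 8.15 and 7.8 FPKM on ND and at 24.4, 25.5 and 36.6 on HFD (log2 1.73 ± 0.17, adjusted p = 0.000727, and log2 1.13 after correction). The antiprotease Serpina3n overlapped, at 153, 168 and 206 FPKM on ND and at 158, 154 and 173 on HFD, whereas its neighbour Serpina3k fell from 7751, 5433 and 7526 FPKM on ND to 3184, 1812 and 1415 on HFD (log2 -1.76 ± 0.29, adjusted p = 0.00462). The Serpina3 genes are close copies, so this contrast is uncertain. The 2 acute-phase falls became 1 without ND 3 or HFD 2 and 4 without GT 3.

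Of 29 complement components 6 fell and 3 rose. The central component C3 stood at 1792, 1357 and 1678 FPKM on ND and at 844, 761 and 830.0 on HFD (log2 -0.98 ± 0.17, adjusted p = 0.00592). Of the pore-forming components, C6 fell from 63.9, 40.8 and 75 FPKM on ND to 28.3, 15.8 and 14.2 on HFD (log2 -1.59 ± 0.30, adjusted p = 0.00721). C8b went from 122, 87.6 and 138 FPKM on ND to 31.7, 19.9 and 14.4 on HFD (log2 -2.39 ± 0.28, adjusted p = 0.00115). Both are male-biased genes of the list above. The large rise was Cfd, the protease that starts the alternative pathway and that fat cells make in quantity. It stood at 1.78, 3.11 and 0.72 FPKM on ND and at 193, 162 and 54.7 on HFD. HFD 3 was well below HFD 1 and HFD 2, and ND 3 was lowest (log2 5.48 ± 0.44, adjusted p = 0.000164). Adipoq was listed at 0 in HFD 2, where Cfd stood at 162 FPKM. Adipoq, Lep, Plin1 and Retn were each highest in HFD 1 (1.40, 0.72, 0.40 and 0.48 FPKM), where Cfd was highest too. The part of fat cell RNA in the Cfd values was not tested. The 6 falls became 3 without ND 3 or HFD 2, and the 3 rises became 1 without ND 1, ND 3 or HFD 2, 5 without HFD 2 and GT 3 together and 7 without GT 3.

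Among apolipoproteins and lipoprotein assembly genes 6 of 20 rose and 1 fell. Apom, the HDL carrier of sphingosine 1-phosphate, fell from 90.2, 77 and 70.6 FPKM on ND to 28.2, 21.5 and 21.3 on HFD. It was low in each HFD library (log2 -1.71 ± 0.23, adjusted p = 0.00186). Apoa2, a main HDL protein with a short transcript, stood at 15267, 21599 and 15428 FPKM on ND and at 34988, 46209.6 and 37667 on HFD. It passed (log2 1.19 ± 0.22, adjusted p = 0.00669) but did not with the length and GC correction (log2 0.33, adjusted p = 0.0959). The 6 rises of the list became 2 without ND 3 or HFD 2 or with the length and GC correction and 3 without ND 1, and the fall became 2 with that correction, at equal FPKM totals and without GT 3 or HFD 2 and GT 3. Of other hepatokines, Tsku, a secreted leucine-rich protein, stood at 5.71, 14.3 and 13 FPKM on ND and at 71.7, 56.5 and 79.1 on HFD. The leukocyte chemotaxin Lect2 stood at 54.9, 81.7 and 48.3 FPKM on ND and at 193, 239.8 and 190.0 on HFD. Neither gene overlapped, and ND 1 was lowest for Tsku (log2 2.62 ± 0.32, adjusted p = 0.00126 for Tsku, log2 1.76 ± 0.20, adjusted p = 0.00113 for Lect2, with log2 1.15 for Lect2 after correction).

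Stress genes rose in part. Of 19 genes of the integrated stress response, the programme that ATF4 runs when translation is slowed, 9 rose and 0 fell (1 lower at an unadjusted p under 0.05). The stress cytokine Gdf15 stood at 1.09, 1.05 and 1.92 FPKM on ND and at 37.9, 26 and 25.8 on HFD. It rose about 22.1-fold (log2 3.71 ± 0.26, adjusted p = 0.000123). Nupr1 stood at 0.49, 0.54 and 0.441 FPKM on ND and at 1.34, 3.04 and 2.82 on HFD (log2 1.15 ± 0.20, adjusted p = 0.00568, and log2 2.0 with 0.1 added). Gadd45a, a growth arrest gene that p53 drives too, stood at 1.01, 2.45 and 1.38 FPKM on ND and at 7.23, 6.78 and 3.84 on HFD (log2 1.41 ± 0.24, adjusted p = 0.00561). The regulators themselves did not pass: Atf4 stood at 44.6, 46 and 29.7 FPKM on ND and at 53.9, 57.3 and 59.5 on HFD, and Ddit3, which encodes CHOP, at 6.32, 7.8 and 6.28 FPKM on ND and at 11.5, 13.2 and 11.3 on HFD (adjusted p = 0.081 and 0.0625). The HFD values of both lay above the ND values. The hormone Fgf21 stood at 13, 8.98 and 9.83 FPKM on ND and at 15.2, 22 and 21.9 on HFD. It passed (log2 0.83 ± 0.21, adjusted p = 0.0218), but the change was log2 0.21, adjusted p = 0.543 with the length and GC correction. Its adjusted p was 0.066 at equal FPKM totals, and 0.0617, 0.0875, 0.102 and 0.0654 without ND 2, ND 3, HFD 2 and HFD 3 in turn. Of 26 chaperones of the endoplasmic reticulum 1 rose and 0 fell (4 lower at an unadjusted p under 0.05). The main one, Hspa5, overlapped at 239, 157 and 207 FPKM on ND and at 252, 195 and 181 on HFD. The 9 rises of the stress list became 4 without ND 1, ND 3 or HFD 2 or at equal FPKM totals and 5 with the length and GC correction, and the 1 chaperone rise became 0 without ND 1, ND 2, HFD 1 or HFD 2, at equal FPKM totals or with the length and GC correction and 3 without GT 3. Chaperone falls, 0 here, became 1 without HFD 1, at equal FPKM totals, without HFD 2 and GT 3 together or with the length and GC correction, 2 without ND 2 and 4 without GT 3, and stress list falls became 1 with the length and GC correction.

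Of 18 p53 targets and cell-cycle inhibitors 6 rose, and of 20 immediate early genes, which respond within minutes to growth or stress signals, 7 rose, with 0 falls in both (0 lower at an unadjusted p under 0.05). The cell-cycle inhibitor Cdkn1c stood at 0.471, 0.918 and 0.604 FPKM on ND and at 1.62, 1.91 and 2.01 on HFD. Its values were low and apart (log2 0.78 ± 0.14, adjusted p = 0.00648), with log2 0.47 after correction and 1.39 with 0.1 added. The AP-1 gene Jun stood at 4.48, 4.23 and 2.91 FPKM on ND and at 23.5, 8.17 and 17 on HFD, with HFD 2 far below HFD 1 (log2 1.72 ± 0.33, adjusted p = 0.00842). Its relative Jund was even across the HFD libraries, at 6.12, 5.53 and 4.01 FPKM on ND and at 14, 12.8 and 14.4 on HFD (log2 1.26 ± 0.17, adjusted p = 0.00183, and log2 0.72 after correction). The 6 rises became 2 without ND 3 and 3 without ND 1 or HFD 2, and the 7 rises became 2 without ND 1 and 4 without ND 3 or at equal FPKM totals.

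Some chemokines and cytokines rose from low levels. Of 23 chemokines and cytokines 7 rose and 2 fell. The neutrophil chemokine Cxcl1 stood at 0.829, 1.76 and 3.18 FPKM on ND and at 13.5, 12.4 and 11 on HFD. The HFD values were even and above each ND value (log2 2.26 ± 0.26, adjusted p = 0.00113). The monocyte chemokine Ccl2 stood at 0.241, 0.733 and 0.802 FPKM on ND and at 2.48, 3.42 and 2.09 on HFD (log2 1.21 ± 0.22, adjusted p = 0.00704, with log2 0.75 after correction and 2.09 with 0.1 added). Without HFD 2 and GT 3 its corrected adjusted p was 0.0592. Of 17 genes known from lipid-laden macrophages 6 rose and 1 fell, Fabp4 among the rises, while the 16 Kupffer cell and macrophage markers gave no call, as stated above. The 7 chemokine rises became 2 without ND 1 or HFD 2 and 3 without ND 3, and the 2 falls became 0 without ND 3 or HFD 2 and 1 without ND 1, ND 2 or HFD 1. The 6 rises of the lipid-laden macrophage list became 2 without ND 1 or HFD 2 and 3 without ND 3, and the 1 fall became 0 without ND 2, ND 3, HFD 1 or HFD 2, without HFD 2 and GT 3 together or with the length and GC correction and 2 without GT 3.

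Galectins, annexins and S100 proteins, calcium- or sugar-binding proteins that many injured or dividing cells make, rose in 12 of 22 genes and fell in 0 (0 lower at an unadjusted p under 0.05). Galectin 1 (Lgals1) stood at 5.59, 20.6 and 7.31 FPKM on ND and at 84.7, 143 and 133 on HFD. ND 2 was the highest ND library and still far below HFD 1 (log2 3.48 ± 0.39, adjusted p = 0.00108). Annexin A2 (Anxa2) stood at 7.67, 10.1 and 6.78 FPKM on ND and at 29.6, 36.1 and 58.7 on HFD, and annexin A5 (Anxa5) at 36.8, 37.8 and 39.3 FPKM on ND and at 89.8, 84 and 120.0 on HFD (log2 2.17 ± 0.31 and 1.33 ± 0.26). HFD 3 was highest for both. S100a1, on a short transcript, changed by log2 1.28 ± 0.19, and by 0.51 after correction. With that correction 6 of the 22 rose.

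Some matrix genes rose, at levels of a few FPKM. Of 33 matrix and fibrosis genes 9 rose and 3 fell. The fibrillar collagen gene Col3a1 stood at 2.41, 3.39 and 3.59 FPKM on ND and at 7.15, 14.3 and 19.6 on HFD. Col1a1 stood at 0.797, 1.18 and 0.778 FPKM on ND and at 1.6, 5.5 and 8.27 on HFD. In both, the HFD values ran widely and were highest in HFD 3, and HFD 1 lay close to ND for Col1a1 (log2 1.74 ± 0.31, adjusted p = 0.00602 and log2 1.5 ± 0.37, adjusted p = 0.0206). Adjusted p for Col1a1 was 0.0776, 0.0814, 0.101 and 0.0592 without ND 1, ND 3, HFD 2 and HFD 3 in turn, besides 0.109 without HFD 2 and GT 3 together. The macrophage elastase Mmp12 stood at 0.191, 0.326 and 0.0738 FPKM on ND and at 1.27, 1.23 and 3.3 on HFD (log2 1.23 ± 0.25, adjusted p = 0.00979, and log2 2.72 with 0.1 added). Lamb3, a laminin chain of epithelia, went the other way and was steady within each diet, at 18, 17.2 and 18.5 FPKM on ND and at 5.77, 6.01 and 6.33 on HFD (log2 -1.42 ± 0.23, adjusted p = 0.00453). The 9 rises became 2 without ND 1, 3 without ND 3 or HFD 2, 4 without HFD 3 and 5 without HFD 2 and GT 3 together, and the 3 falls became 1 without ND 1 or HFD 2.

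The bile acid enzymes Cyp7a1 and Cyp8b1 did not pass, while Cyp7b1, given above with the male-biased genes, fell in the main fit but not in every fit. Of 25 genes of bile acid synthesis and transport 3 rose and 4 fell, against 11.9% and 6.67% of all genes. Cyp7a1, the rate-limiting enzyme, stood at 95.2, 135 and 117 FPKM on ND and at 95.2, 58.8 and 97.4 on HFD, and Cyp8b1, which makes cholic acid, at 585, 575 and 558 FPKM on ND and at 579.5, 524 and 488 on HFD. Both overlapped (adjusted p = 0.264 and 0.672). Klb, the co-receptor through which FGF15 and FGF21 act on the liver, stood at 9.8, 7.45 and 11 FPKM on ND and at 4.16, 3.15 and 4.05 on HFD (log2 -1.11 ± 0.20, adjusted p = 0.00674). The 3 rises became 1 without ND 1, ND 2, HFD 1 or HFD 2 or at equal FPKM totals and 5 without GT 3, and the 4 falls became 1 without ND 1, ND 3 or HFD 2 and 2 without HFD 2 and GT 3 together.

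Of 16 core clock genes 2 rose and 1 fell, near the shares over all genes (11.9% and 6.67%). The clock repressor Bhlhe40 stood at 5.11, 9.8 and 10.6 FPKM on ND and at 21.3, 17.5 and 27.7 on HFD (log2 1.32 ± 0.27, adjusted p = 0.0111). Arntl, which encodes BMAL1, stood at 4.12, 2.02 and 1.51 FPKM on ND and at 1.4, 0.539 and 1.61 on HFD, and Per2 at 2.16, 5.04 and 6.42 FPKM on ND and at 5.33, 7.68 and 8.38 on HFD. Both overlapped and neither passed (adjusted p = 0.11 and 0.318). The hour at which each liver was taken is not given in the labels. The 2 rises became 1 without HFD 2, and the fall became 0 without ND 1, ND 3 or HFD 2, 2 without ND 2 and 3 without GT 3.

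Hepatocytes near the central vein and near the portal vein differ in their genes. Of 23 pericentral genes 4 rose and 0 fell, and of 20 periportal genes 3 fell and 0 rose (0 against the stated direction at an unadjusted p under 0.05 in either). The pericentral dicarboxylate transporter gene Slc13a3 stood at 1.62, 3.43 and 2.55 FPKM on ND and at 9.42, 8.51 and 10.7 on HFD (log2 1.61 ± 0.24, adjusted p = 0.00298). Sp5, a target of the Wnt signal that marks this zone, stood at 0.679, 1.2 and 0.319 FPKM on ND and at 2.38, 2.24 and 2.27 on HFD (log2 0.96 ± 0.18, adjusted p = 0.00722, and log2 1.67 with 0.1 added). The marker best known for the zone, glutamine synthetase (Glul), stood at 506, 575 and 432 FPKM on ND and at 885, 553 and 593 on HFD, and the periportal cytochrome Cyp2f2 at 189, 95.5 and 232 FPKM on ND and at 134, 143 and 169.6 on HFD. Both overlapped, with adjusted p = 0.3 and 0.811. The 3 periportal falls, with Pck1 and Cps1 among them, became 1 without ND 1, ND 3 or HFD 2.

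Many subunits of the respiratory chain and ATP synthase rose, in a count that moved with the length and GC correction. Of 74 genes 49 rose and 0 fell (1 lower at an unadjusted p under 0.05), with a median of log2 0.76, but with the length and GC correction 16 rose and the median was log2 0.20. Ndufa10, a subunit of complex I, stood at 56.3, 56.6 and 46.4 FPKM on ND and at 93, 108 and 103 on HFD (log2 0.92 ± 0.15, and 0.75 after correction, adjusted p = 0.00793). Uqcrq, of complex III, stood at 218, 322 and 220.4 FPKM on ND and at 613, 893 and 668 on HFD (log2 1.52 ± 0.24, and 1.22 after correction). Both kept their call with the correction. Ndufa7 moved from log2 1.30 ± 0.22 to 0.55. Cox8a, at 160.3, 207 and 145 FPKM on ND and at 333, 430.3 and 364 on HFD, lost its call (log2 1.14 ± 0.18 before and 0.21 after, adjusted p = 0.382). In the same way 20 of 74 cytosolic ribosomal protein genes rose and 0 fell (3 lower at an unadjusted p under 0.05), while 0 rose and 8 fell after correction. The 49 respiratory chain rises became 18 without ND 1, 17 without ND 3 and 13 without HFD 2, with 1 fall without GT 3. The 20 ribosomal rises became 0 without ND 1, ND 3 or HFD 2 or with the length and GC correction, 10 at equal FPKM totals, 11 without HFD 3, 13 without HFD 1 and 33 without GT 3. Ribosomal falls, 0 here, became 2 without HFD 2 and GT 3 together, 3 without GT 3 and 8 with the length and GC correction.

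**Figure D5:**
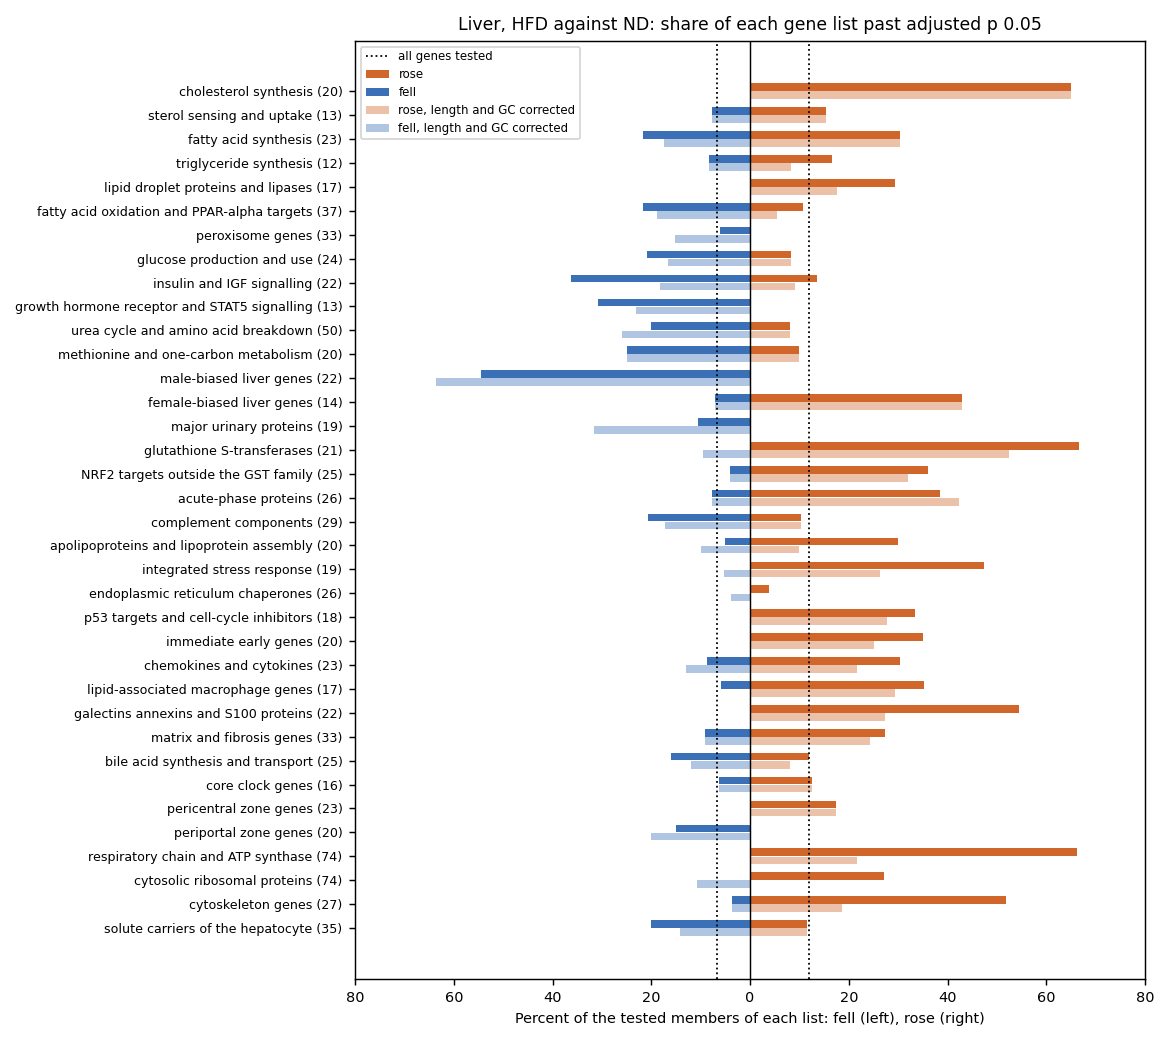
Percent of the tested members of each gene list that rose (orange, to the right) or fell (blue, to the left) on HFD, with the number tested in brackets, the same after the length and GC correction in pale bars, and the shares over all genes as dotted lines (11.9% and 6.67%). Cholesterol synthesis keeps its 13 of 20 after the correction, male-biased genes have 12 of 22 and 14 of 22 that fell, and the respiratory chain drops from 49 to 16 of 74.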

How the data were processed

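Liver RNA of 3 libraries per diet was compared between the high-fat and normal diets. The authors deposited FPKM per gene, and these values entered without further scaling. Every measurement column belonged to a sample. The tools named in the submitters' processing notes are CASAVA (1.8.2), STAR (2.4.0) and Cufflinks (2.1.1), and no genome build is given in the sources used here. Read numbers were not used here, so the depth is unknown and the spread between libraries sets the precision. Symbols came from GENCODE M21 for 22671 of 23474 identifiers.

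Genes with 1 FPKM or more in 3 of 9 liver libraries were tested as log2(FPKM + 1) in limma (version 3.58.1, R version 4.3.3). The fit had 1 mean for each diet, variance trend and robust options, and Benjamini-Hochberg adjustment at 0.05. The procedure was also run on simulated data. These held independent noise for each gene and no length trend, muscle RNA or listed zeros, so they say nothing of those. The fit and the tables were made on all 9 liver libraries, so that the GT libraries shared in the estimate of the spread. Alternatives were another added value (0.1), no filter or one at 5 FPKM, other scalings, a plain prior, a block for the replicate number, fits of 6 or 18 libraries, listed zeros set to missing, each library left out, and HFD 2 and GT 3 left out. The length and GC correction, a loess curve on the longest GENCODE M21 transcript, was chosen after seeing the data. Tables and plots used Python 3.11.15, NumPy 2.4.6, pandas 2.3.3 and matplotlib 3.10.9.

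The gene lists, the members and the tests were chosen with earlier results of these data known. The genes open to naming were the 20 rises and 20 falls of largest change among called genes without overlap (leaving aside mitochondrial, small RNA, pseudogene, predicted and clone names), the 6 members of smallest p in each list with its best known members, the cell type markers, and abundant genes listed at 0. Some genes that this rule names are not reported here. Promoters came from RefSeq on GRCm38.p6.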

Additional observations from a re-analysis of the deposited data

How the results depend on the processing

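The count of called genes moved by more than 1.5 times in some settings. In the fit of all 18 libraries, which pools fat and liver variance, 305 genes were called, 219 up and 86 down. With the length and GC correction 1266 were called, 761 of them up, and without HFD 2 and GT 3 as well 1195, 698 of them up. At equal FPKM totals 613 rose. With 6 libraries in the fit 1241 fell. Leaving out each library in turn gave 474 to 3363 calls, 377 to 1855 up and 97 to 1508 down, fewest without HFD 2 (474), ND 3 (557) and ND 1 (577) and most without GT 3 (3363). The cause was not tested.

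The replicate number as a block gave 1659 calls, 1055 up and 604 down. Same-numbered ND and HFD libraries correlated in their deviations by 0.163, 0.418 and 0.0959, and the labels do not say that a number pairs mice.

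Of 141 genes named, 117 were called. Of these calls 57 stood under all 23 alternatives, 38 ended only in the fit of all 18 libraries, 100 stood in each of the 9 fits without a library, and 6 ended with the length and GC correction. Sign changes came from genes near 0. At equal FPKM totals Scd1 changed by -0.00153, Ghr by -0.208 and Hspa5 by -0.151, and with quantile scaling Ghr by -0.140 and Hspa5 by -0.118. With the length and GC correction Acaca stood at 0.267 and Stat5b at 0.0418, and without HFD 2 and GT 3 as well Acly stood at 0.0544, Acaca at 0.219 and Stat5b at 0.0965. Over the 9 fits without a library, Scd1 ranged from -0.124 (without ND 1) to 0.453, Ghr from -0.0643 (without HFD 1) to 0.0458, Hspa5 from -0.101 (without ND 2) to 0.201, Serpina3n from -0.202 to 0.00774 (without ND 3) and Cyp2f2 from -0.496 to 0.139 (without ND 3). All are log2 values.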

Other observations

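Many cytoskeleton genes rose on HFD. Of 27 genes 14 rose and 1 fell, against 11.9% and 6.67% of all genes, and with the length and GC correction 5 rose. Keratin 8 (Krt8), the intermediate filament of hepatocytes, stood at 81.8, 83.1 and 90.6 FPKM on ND and at 160.1, 202 and 212 on HFD. Beta-actin (Actb) stood at 161, 188 and 151 FPKM on ND and at 311, 295 and 351 on HFD. Both were higher in each HFD library (log2 1.15 ± 0.16, adjusted p = 0.0022 and log2 0.93 ± 0.17, adjusted p = 0.00624), and tropomyosin 2 (Tpm2) stood at 4.71, 9.05 and 3.92 FPKM on ND and at 25.2, 31 and 17.3 on HFD (log2 1.92 ± 0.27, adjusted p = 0.00216). Tpm2 is also a muscle gene, and muscle transcripts were highest in HFD 2. The 14 rises became 4 without ND 3, 5 without HFD 2 or with the length and GC correction, 6 without ND 1 or HFD 3 and 7 at equal FPKM totals, and the 1 fall became 0 without ND 1, ND 2, ND 3, HFD 1, HFD 2, HFD 3 or GT 1 or without HFD 2 and GT 3 together and 2 without GT 3.

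Of 35 channels and transporters of the hepatocyte, most of them solute carriers, 7 fell and 4 rose, with a median of log2 -0.30. Slc7a2, a carrier of arginine and other cationic amino acids, fell from 78.3, 91.2 and 131 FPKM on ND to 44.7, 37.8 and 50.7 on HFD. Its diets did not overlap (log2 -1.13 ± 0.25, adjusted p = 0.0143, and adjusted p = 0.0663 and 0.0762 without ND 3 and HFD 2 in turn). The aquaporin Aqp8, which lets water into bile, stood at 27.6, 28.4 and 26.9 FPKM on ND and at 105, 146 and 152 on HFD. The transporter gene Slc16a11, which human genetics links to type 2 diabetes, stood at 13.8, 14.7 and 12.5 FPKM on ND and at 29.6, 39.2 and 30.7 on HFD. Their HFD values lay wholly above the ND values (log2 2.22 ± 0.25, adjusted p = 0.00108 and log2 1.21 ± 0.16, adjusted p = 0.00176). The 7 falls became 0 without ND 3, 1 without ND 1 or HFD 2, 3 without HFD 3 and 15 without GT 3.

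Some of the largest changes fell outside the lists. Ifi27l2b, of a family of interferon-induced mitochondrial proteins, stood at 2.61, 4.58 and 3.38 FPKM on ND and at 21.9, 44.5 and 51.3 on HFD (log2 3.09 ± 0.31, adjusted p = 0.000769). Scand1, a small protein with a zinc finger partner domain, stood at 0.73, 0.21 and 0.203 FPKM on ND and at 12.2, 23.5 and 14.4 on HFD (log2 3.65 ± 0.29, adjusted p = 0.000164). Dsg2, a cadherin of desmosomes, stood at 6.99, 4.21 and 10.9 FPKM on ND and at 1.56, 0.904 and 1.66 on HFD (log2 -1.75 ± 0.30, adjusted p = 0.00561). The trefoil peptide Tff3 stood at 12.5, 16.6 and 15.2 FPKM on ND and at 2.1, 7.51 and 3.45 on HFD, with HFD 2 above the other HFD libraries (log2 -1.68 ± 0.35, adjusted p = 0.0111, and log2 -2.60 with the length and GC correction). The diets did not overlap for any of these genes.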
